A study of Strongylocentrotus purpuratus with 8 samples.

Results

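The Akt and phosphatidylinositol genes described here are the targets on a sea urchin expression array whose printed name contains Sp-Akt, _Akt or Phosphatidylinositol_, in any letter case. The members are matched by name, without a measured value, though the rule was proposed with earlier results of these data known. It gave 2 of the 6414 targets, each with 2 probes. The first is Sp-Akt, the gene model GLEAN3_10805, which codes for the kinase Akt. The second is printed as Phosphatidylinositol_ and its name breaks off there, so the array files do not say whether it codes for a kinase of this lipid, a phosphatase or another protein that handles it. A second Akt target, SpAkt_c (GLEAN3_17694), does not carry those letters and is described beside the 2 members. The array files give no genome position for any of them.

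The morphant RNA came from hatched blastulae of Strongylocentrotus purpuratus, a sea urchin, in 4 cultures, each from its own pair of wild, outbred adults. As zygotes they had been injected with a morpholino, a synthetic antisense oligonucleotide, that blocks splicing of the transcript of SpRunt-1, a Runx transcription factor. The control was 1 pool of RNA from untreated embryos of the same cultures, with no injected oligonucleotide, so the injection and the morpholino's target cannot be told apart. Both were raised in filtered sea water at 15 °C and collected 18 hours after fertilization, and a morphant sample held 3600 embryos and gave near 5 µg of RNA, the pool near 14400 embryos and 20 µg. Each culture's morphant RNA was set against the pool on 2 two-colour arrays with exchanged dyes. This gave 8 arrays on 1 slide and n = 4 cultures, and the pool leaves out the control's own spread.

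Akt is a protein kinase that growth factors and insulin switch on through phosphatidylinositol 3-kinase, or PI3K. PI3K adds a phosphate to the inositol ring of a membrane lipid, and Akt binds the product and is phosphorylated at the membrane by PDK1. Active Akt is known for promoting cell survival and growth, through proteins that include FoxO, Bad and the TOR pathway. Embryos that lack SpRunt-1 are known from earlier work to undergo apoptosis, so the comparison asks whether transcripts of this survival pathway differ in morphants.

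Across the whole array, 5481 targets had a probe bright enough to be tested, and median signals per array were 67.3 to 95.5 in the morphant channel and 59.9 to 70.8 in the control channel. The Runt target itself gave −0.18 ± 0.27 as the log2 ratio of morphant to control (SD, n = 4, probe CUST_8630, limma adjusted p = 0.345) and 0.08 with median centring, so its direction was not settled. Its other probe, CUST_8629, gave −0.20 ± 0.09 with loess scaling (SD, n = 4, limma adjusted p = 0.119 among all probes). A morpholino of this kind acts on splicing and may leave the amount of transcript as it was. Of 20 probes for 10 targets named as hatching enzyme, SPAN or other blastula proteases, which mark this stage, 13 were well above background on all arrays in the morphants and 14 in the control. Of the 9 such targets tested, 1 rose and 1 fell, where 2.96% of all genes rose and 2.04% fell. The one that rose was a SPAN protein (BlasTig2997, log2 ratio 2.01, limma adjusted p = 0.0416), and the one that fell was a very early blastula gene (−1.05, limma adjusted p = 0.0346). The SPAN targets Mes_gi and MesTig2556 gave 1.27 (limma adjusted p = 0.0588) and 1.29 (adjusted p = 0.0563), but 0.34 and 0.37 on their other probes. Their tested probes were saturated in the morphants on 3 and 4 of 8 arrays, and in the control on 0. A hatching enzyme (Tig417) gave −0.72 (limma adjusted p = 0.120). Whether a difference in stage has a part in the results on Akt was not tested.

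Sp-Akt gave a bright signal. Its tested probe, CUST_6823, read 2870.3 and 3676 scanner units on the 2 arrays of culture 1 in the morphant channel, against 8036 and 4988 in the control channel, with the array that held the morphant in Cy5 first. In culture 2 it read 2992 and 2297 in the morphants, against 6921 and 3834 in the control. Both cultures had a morphant signal below the control signal with either dye. Culture 3 gave 5563 and 3445 in the morphants and 7077 and 4316 in the control. Culture 4 gave 4452 and 5569.8 in the morphants and 7329 and 5534 in the control. Only the second array of culture 4 had the morphant at or above the control. These signals are not yet scaled, and the local background was 42 to 53 units.

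**Figure D1:**
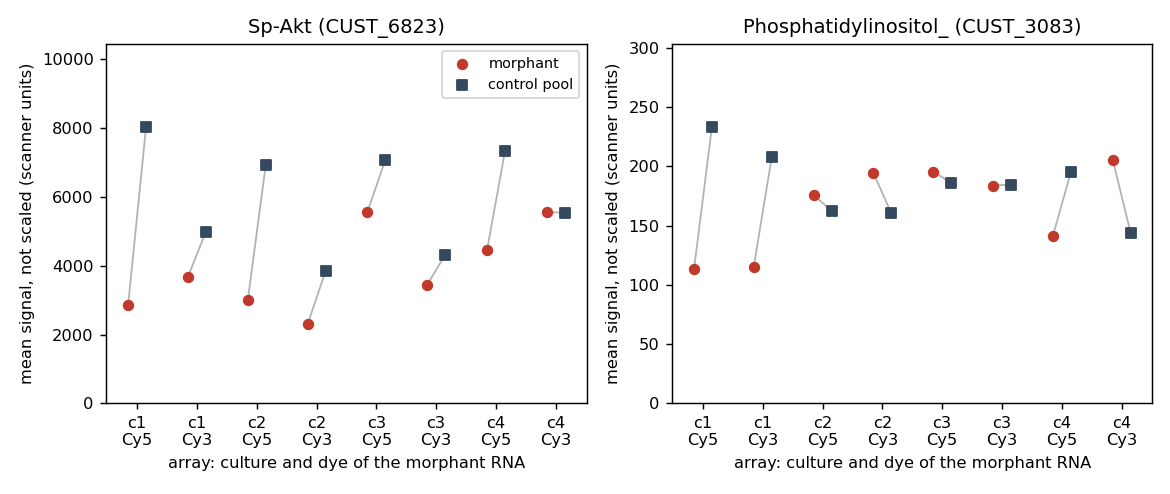
Mean signal in scanner units, before background correction and scaling, of the tested probes of Sp-Akt (left) and Phosphatidylinositol_ (right) on each of the 8 arrays, labelled by culture (c1 to c4) and by the dye of the morphant RNA. Circles are the morphant channel, squares the control channel, and a line joins the 2 channels of 1 array. The Sp-Akt signal is lower in the morphants on 7 of 8 arrays, and the Phosphatidylinositol_ signal on 4 of 8.

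After background correction and loess scaling, which sets each probe against others of its brightness on the same array, the log2 ratios of Sp-Akt were −0.80, −2.26, −1.29 and −1.28 in cultures 1 to 4. All 4 were below 0, and culture 2 was the lowest. The mean was −1.41 ± 0.62 (SD, n = 4), or 0.377-fold, with a 95% interval of −2.08 to −0.74. The limma adjusted p was 0.0531 and so just missed the threshold of 0.05. The unadjusted p was 0.00337, and the largest p that passed over all genes was 0.00246. The 8 single arrays gave −2.34 to −0.72, and the means of the arrays with the morphant in Cy5 and in Cy3 were −1.43 and −1.38, with a limma adjusted p for the dye effect of 0.838. In a bulk sample like this one, fewer cells that express a gene and less RNA per cell cannot be told apart.

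The other Sp-Akt probe, CUST_6824, read 2451 to 4956 units in the morphants and 2703 to 6174 in the control, with the morphant below the control on 7 of 8 arrays. Its log2 ratios were −0.51, −1.77, −1.13 and −1.02 in cultures 1 to 4, with a mean of −1.11 ± 0.52 (SD, n = 4), or 0.464-fold. It ordered culture 2 lowest and culture 1 highest, as the first probe did. With all probes tested separately its limma adjusted p was 0.0568 and that of CUST_6823 was 0.0518. Both probes thus had the same sign in every culture, and neither passed, where 2.03% of all probes fell.

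Sp-Akt lay low among all genes but with a wide spread. Of the 5481 genes tested, 34 had a lower mean ratio and 346 had a smaller p. Its SD between cultures of 0.62 was at the 86.7th percentile, against a median SD of 0.239. Among all genes, 2.86% had a mean at or below 0.5-fold and 23.4% were below 0 in all 4 cultures, as Sp-Akt and Phosphatidylinositol_ both were.

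The second member, Phosphatidylinositol_, gave a dim signal. Its tested probe, CUST_3083, read 113 and 115 units on the 2 arrays of culture 1 in the morphants, against 233 and 208 in the control. Culture 2 gave 176 and 194 in the morphants and 162 and 160.3 in the control. Culture 1 was thus clearly below the control and culture 2 slightly above it before scaling. Culture 3 read 196 and 184 in the morphants and 186 and 185 in the control. Culture 4 read 141 and 206 in the morphants and 195 and 144 in the control. The channels of culture 3 were nearly equal, and those of culture 4 changed order with the dye. Local backgrounds were 42.5 to 51.5 units, and the probe was well above background in both channels on all 8 arrays.

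After loess scaling its log2 ratios were −0.98, −0.89, −0.82 and −0.59 in cultures 1 to 4. They were below 0 in every culture and close together. The mean was −0.82 ± 0.17 (SD, n = 4), or 0.566-fold, with a 95% interval of −1.05 to −0.59, and the gene fell with a limma adjusted p of 0.0276. It is the 1 member of 2 that passed, where 2.04% of all genes tested fell and 5% passed in either direction. The single arrays gave −1.21 to −0.45, and the means by dye were −0.77 with the morphant in Cy5 and −0.87 with it in Cy3. The call was lost in the fits without culture 2 (−0.80, limma adjusted p = 0.0887), without culture 3 (−0.82, adjusted p = 0.125) and without culture 4 (−0.90, adjusted p = 0.0910), in which 1, 0 and 0 genes of the whole array passed.

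The other Phosphatidylinositol_ probe, CUST_3084, read 44.5 to 80.8 units in the morphants and 48.5 to 54.0 in the control. It was well above background on 2 arrays in the morphants and on 0 in the control, so it was left out of the tests. Its log2 ratio of 0.04 ± 0.11 (SD, n = 4) was measured near background and gives no check of the brighter probe. The fall of this target therefore rests on 1 probe.

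SpAkt_c, also dim, read 60.5 to 194 units in the morphants, with a median of 114, and 83.3 to 143 in the control, with a median of 125, on probe CUST_11304. The 2 channels overlapped, and the morphant was below the control on 4 of 8 arrays. After scaling its log2 ratios were −1.00, −0.43, −0.73 and −0.23 in cultures 1 to 4, with a mean of −0.60 ± 0.34 (SD, n = 4), or 0.661-fold. The 95% interval was −0.99 to −0.21 and the limma adjusted p was 0.0741. This dim target was −1.29 (0.408-fold, limma adjusted p = 0.0622) with plain subtraction of background and −1.38 (0.385-fold, adjusted p = 0.0591) with Agilent's log ratio, and it passed with culture as a random block (adjusted p = 0.0391) and with a variance trend (adjusted p = 0.0432). Its other probe, CUST_11303, gave −0.96, −0.68, −1.07 and −0.19, with a mean of −0.73 ± 0.39 (SD, n = 4) and a limma adjusted p of 0.0687 among all probes. Both Akt targets were below 0 in all 4 cultures on both of their probes, and none of these probes passed in the reported fit.

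**Figure D2:**
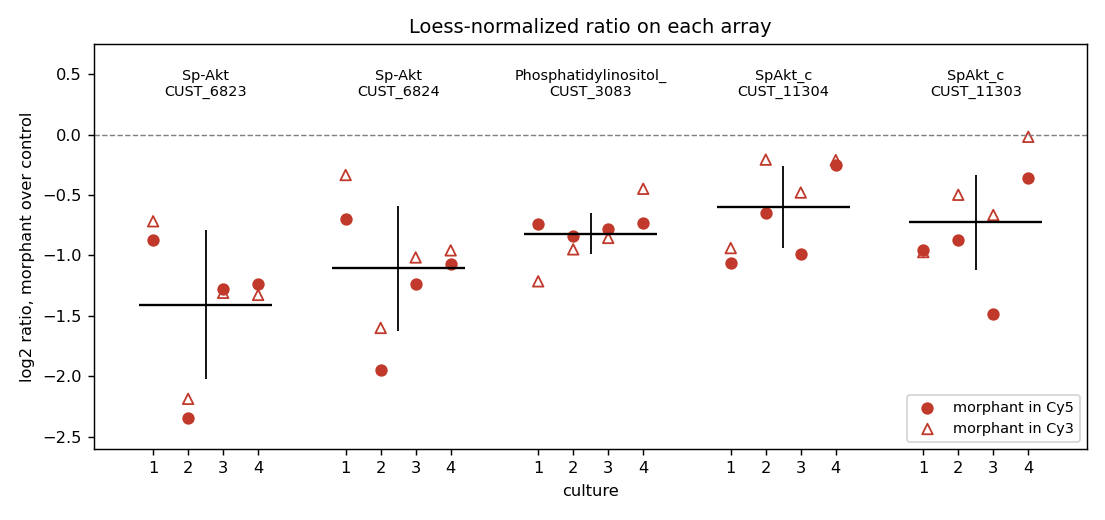
Log2 ratio of morphant over control after loess scaling on each of the 8 arrays, for the probes of Sp-Akt, Phosphatidylinositol_ and SpAkt_c that were bright enough to be tested, by culture (1 to 4). Filled circles are arrays with the morphant in Cy5 and open triangles arrays with it in Cy3. Horizontal lines are means and vertical lines SDs over the 4 cultures. Every array lies below 0, and culture 2 is lowest for both Sp-Akt probes (−2.26 and −1.77) but not for SpAkt_c (−0.43 and −0.68).

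The size of these ratios also depended on the scaling. Before any scaling, the ratio of background-corrected signals for Sp-Akt averaged −0.66 on the log2 scale over the 8 arrays, from −1.48 to 0.01. The loess curve at the brightness of Sp-Akt averaged 0.75, from −0.61 to 1.45, and was above 0 on 7 of 8 arrays, so that probes of its brightness mostly read higher in the morphant channel. With each array centred on its median in place of the curve, Sp-Akt gave −1.00, −1.26, −0.61 and −0.59 in cultures 1 to 4, with a mean of −0.87 and a limma adjusted p of 0.0725. It stayed below 0 on all 8 arrays. Median centring moved the median of all genes to 0.10, against −0.02 with loess.

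For Phosphatidylinositol_ the unscaled ratio was nearer to 0. Its unscaled ratio averaged −0.16, from −0.96 to 0.51, and was below 0 on 3 of 8 arrays, while the curve at its brightness averaged 0.66. With median centring its log2 ratios were −0.91, −0.08, −0.25 and −0.23 in cultures 1 to 4. The mean of −0.37 did not pass, with a limma adjusted p of 0.229, and 0.128% of all genes fell with that scaling. SpAkt_c had an unscaled mean of −0.06 and a median-centred mean of −0.27 (limma adjusted p = 0.438). With median centring it was below 0 on 5 of 8 arrays. The fall of Phosphatidylinositol_ is thus a fall relative to probes of like brightness. Which scaling is nearer to the amounts in the embryos was not tested.

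The 4 cultures differed in Sp-Akt by far more than the 2 arrays of 1 culture did. The culture means of CUST_6823 spanned 1.47 on the log2 scale, while the 2 arrays of a culture were 0.0348 to 0.156 apart. The F test for differences between cultures gave 62.5 with a limma adjusted p of 4.69e-06, where the yardstick is the difference between arrays of 1 culture. Differences of this kind were common, and 61.5% of all genes passed this test. For Phosphatidylinositol_ the culture means spanned 0.39 and the arrays of a culture were 0.0736 to 0.471 apart, and the F of 2.43 did not pass (limma adjusted p = 0.168), while with the authors' deposited table it was 9.83 and passed (adjusted p = 0.00503). SpAkt_c passed with an F of 13.2 (limma adjusted p = 0.00170), with cultures 1 and 3 the lowest. With median centring the F of Sp-Akt was 4.42 and did not pass (limma adjusted p = 0.0946). The spread of Sp-Akt over cultures and the order of the cultures thus also differed with the scaling. Culture 1 was the highest with loess, at −0.80, but lay below cultures 3 and 4 with median centring, at −1.00. Culture 2 was the lowest with both.

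**Figure D3:**
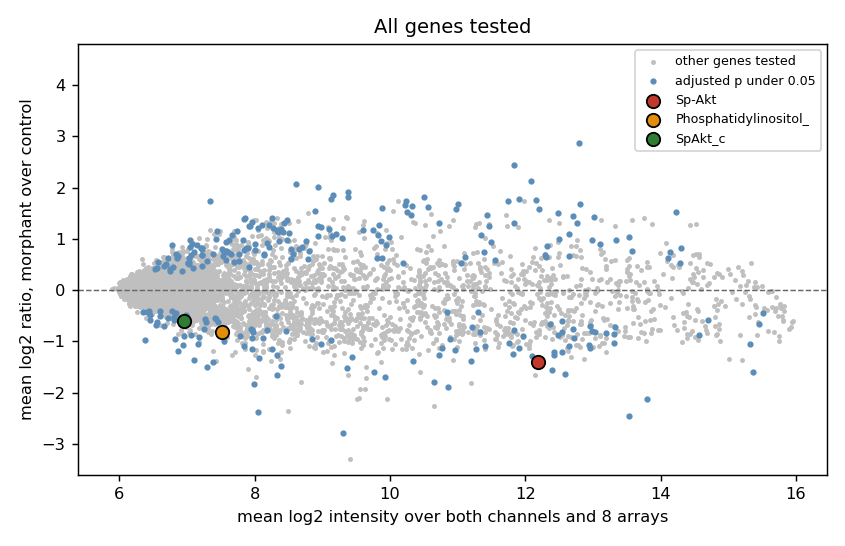
Mean log2 ratio of morphant over control over 4 cultures against mean log2 intensity over both channels and all arrays, for the 5481 genes tested. Small points in colour are the 274 genes with an adjusted p under 0.05. Sp-Akt, at −1.41, is bright and lies low in the cloud, while Phosphatidylinositol_, at −0.82, and SpAkt_c, at −0.60, are near the dim end.

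The array holds 23 other targets whose names, many of them cut short, point to Akt, PI3K or inositol compounds, SpAkt_c among them. This wider list was drawn up after the files had been seen. Of its 19 tested genes, 1 rose and 0 fell, where 2.96% of all genes rose. By sign 16 were below 0 and 3 above, and 10 of the 19 were below 0 in all 4 cultures, as 23.4% of all genes were. Their median log2 ratio was −0.22, against −0.02 for all genes, and they ranged from −0.87 to 0.82. These values are with loess scaling. With median centring SpAkt_c and the PI3K target from GLEAN3_10910 moved up to −0.27 and −0.32. The PI3K target from GLEAN3_05073 moved up to 0.69 and MesTig605 to 1.35. The Akt family names RAC-beta and RAC-gamma, used for Akt isoforms in vertebrates, gave −0.40 ± 0.28 for RAC-beta (limma adjusted p = 0.110), and −0.28 ± 0.19 (adjusted p = 0.120) and −0.18 ± 0.35 (adjusted p = 0.438) for 2 targets named RAC-gamma (SD, n = 4 each).

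The gene that rose is printed as Phosphatidylino (MesTig605), again cut short. Its log2 ratios were 0.49, 1.12, 0.71 and 0.96 in cultures 1 to 4, above 0 in all of them. The mean was 0.82 ± 0.28 (SD, n = 4), or 1.76-fold, with an interval of 0.49 to 1.15 and a limma adjusted p of 0.0458, and its other probe gave 0.83. The call was lost with median centring (1.35, limma adjusted p = 0.0829), without the filter on dim probes (adjusted p = 0.0508) and in the fits without culture 2, 3 or 4. Targets with near-identical names thus lay on opposite sides of 0. The largest other values among such names were −0.83 ± 0.68 for Phosphatidylinosit (Mes_gi, limma adjusted p = 0.120) and −0.68 ± 0.38 for PHOSPHATIDYLINOSITO (adjusted p = 0.0714; SD, n = 4 each).

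Of the targets named outright for PI3K, the one from GLEAN3_10910 came closest to the threshold. With loess scaling its log2 ratios were −0.60, −1.39, −0.73 and −0.75 in cultures 1 to 4, below 0 in all of them. They were lowest in culture 2, as for Sp-Akt, but also as for other targets such as Rheb (−1.62) and PP2A (−1.30). The mean was −0.87 ± 0.36 (SD, n = 4), or 0.548-fold, with a limma adjusted p of 0.0521. Its other probe gave −0.10, so the probes differed widely. With median centring the tested probe gave −0.32 (limma adjusted p = 0.278). The PI3K target from GLEAN3_05073 had the opposite sign, at 0.32 ± 0.25 (SD, n = 4, limma adjusted p = 0.132), and its second probe gave 0.07. Sp-PIK3 gave −0.11 ± 0.05 (limma adjusted p = 0.244).

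**Figure D4:**
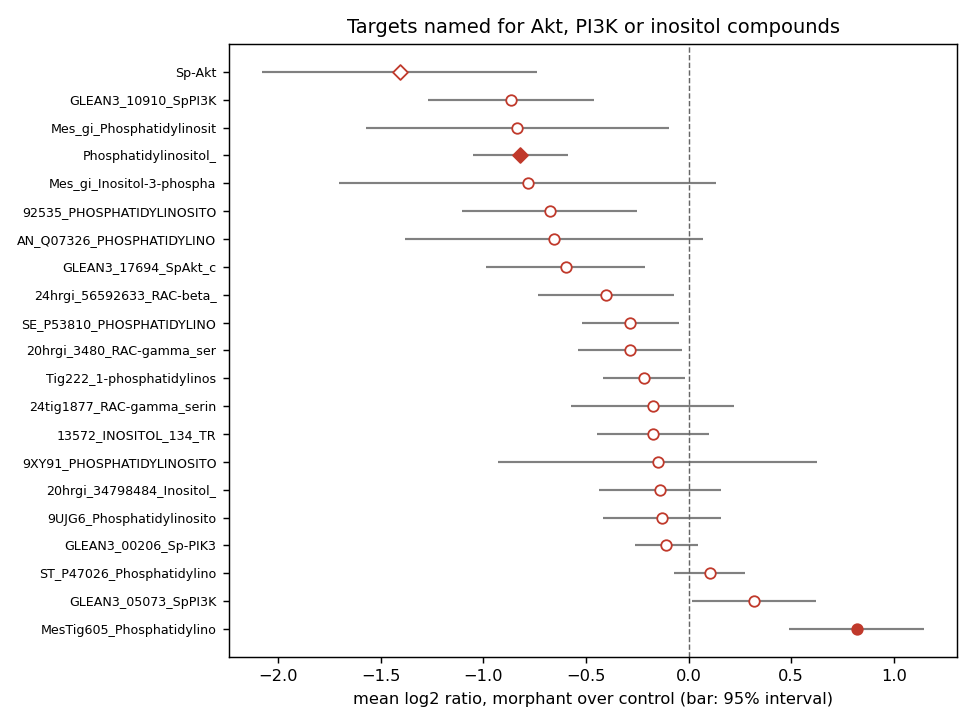
Mean log2 ratio of morphant over control with limma's 95% interval for the 2 members (diamonds) and the 19 tested targets named for Akt, PI3K or inositol compounds (circles), in order of the ratio. Filled symbols have an adjusted p under 0.05. They are Phosphatidylinositol_ at −0.82 and Phosphatidylino (MesTig605) at 0.82, and Sp-Akt has the lowest mean at −1.41.

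Around Akt, 7 lists of pathway genes held 44 targets, of which 38 were tested. Of these 0 passed with limma at an adjusted p under 0.05, and 13 had an unadjusted p under 0.05, where 35.3% of all genes did. Their median log2 ratio was −0.07, against −0.02 for all genes, with 24 below 0 and 14 above. The list for growth factors and receptor kinases, drawn by name, held 9 tested genes, not all of them factors or receptors. The 2 with the smallest p were Insulin-degrading, a protease that cleaves insulin, at −0.27 ± 0.02 (limma adjusted p = 0.0583), and Fibroblast_growth_, at −1.27 ± 0.73 (adjusted p = 0.0699; SD, n = 4 each). Insulin-degrading was −0.85 with plain subtraction of background (limma adjusted p = 0.0435) and −0.92 with Agilent's log ratio (adjusted p = 0.0364), and so passed with both. With median centring it was −0.16 (limma adjusted p = 0.226). Fibroblast_growth_ was −1.46 with plain subtraction (limma adjusted p = 0.0421) and −0.70 with median centring (adjusted p = 0.223). The name Fibroblast_growth_ does not say whether it is the factor or a receptor, and its 2 probes gave −1.27 and −1.25. The list of 6 inositol enzymes is led by the 2 PI3K targets above.

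PDK1, the kinase that phosphorylates Akt, gave −0.05 ± 0.06 (SD, n = 4, limma adjusted p = 0.545), with an interval of −0.21 to 0.10. This target was dim, not well above background in both channels on at least 6 arrays. Its value depended on the background correction, at −0.34 with plain subtraction (limma adjusted p = 0.279) and −0.44 with Agilent's log ratio (adjusted p = 0.166). PP2A, a phosphatase that can remove phosphate from Akt, gave −0.68 ± 0.58 (limma adjusted p = 0.127), with cultures from −1.30 to 0.08. In the TOR pathway, which controls translation and growth downstream of Akt, 4 of 6 genes were below 0 and 2 above, from −0.85 to 0.52. Sp-4EBP, a repressor of translation that TOR switches off, gave −0.68 ± 0.30 and −0.68 on its other probe (limma adjusted p = 0.0569). It was −1.01 with plain subtraction of background (limma adjusted p = 0.0452) and −0.22 with median centring (adjusted p = 0.525). Sp-Rheb, the small GTPase that activates TOR, gave −0.85 ± 0.77 (limma adjusted p = 0.139) and was above 0 in culture 1 at 0.22. The list thus mixes an activator of TOR with a repressor of translation, so its count below 0 gives no direction for the pathway. With loess scaling, both Rheb and PP2A were above 0 in culture 1 and lowest in culture 2.

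The 3 tested genes on the list drawn up for proteins on which Akt acts, or that bind them, had means from −0.07 to 0.16. FoxO, a transcription factor that Akt keeps out of the nucleus, gave −0.07 ± 0.08 (SD, n = 4, limma adjusted p = 0.442). It was −0.45 with plain subtraction of background (limma adjusted p = 0.206) and −0.36 with Agilent's log ratio (adjusted p = 0.422). A BCL2/adenoviru target gave 0.16 ± 0.11 (limma adjusted p = 0.179), and 0.79 with Agilent's log ratio (adjusted p = 0.0883). It was as dim as PDK1 by the same measure. Its name is cut short and does not show whether Akt acts on it. The 1 protein kinase C target tested, SpPKCi, gave 0.10 ± 0.17 (adjusted p = 0.459). Among 11 genes of a list for Wnt signalling, mostly Wnt ligands, WNT_INHIBITORY_FACT gave −0.99 ± 0.59 (adjusted p = 0.0735) but 0.69 on its other probe. Sp-Wnt6, a signalling ligand, gave 0.72 ± 0.53 and was above 0 in all 4 cultures (limma adjusted p = 0.104). It passed with plain subtraction (1.23, limma adjusted p = 0.0445) and with Agilent's log ratio (1.24, adjusted p = 0.0439). With median centring it was 1.13 and did not pass (limma adjusted p = 0.0990).

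The genes whose pattern over the cultures was most like that of Sp-Akt were found by the Euclidean distance between their 4 log2 ratios, which makes their low mean and their order of cultures part of the choice. The nearest named gene was Na()/H()_excha (MesTig5309), at a distance of 0.300, with −0.95, −2.04, −1.19 and −1.36 in cultures 1 to 4. Its name is cut short, so it may be a sodium and hydrogen ion exchanger or another protein named for that exchange. ARYLSULFATASE_B, a sulfatase, followed at 0.483, a target printed as 50_kDa_ (MesTig4751) at 0.508, CLIP-associati, a microtubule-binding protein, at 0.522, and a retrovirus-like target (Y51H7BR.5) at 0.554. The points share arrays, control pool and loess scaling, and the order of the cultures in Sp-Akt differed with median centring.

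**Figure D5:**
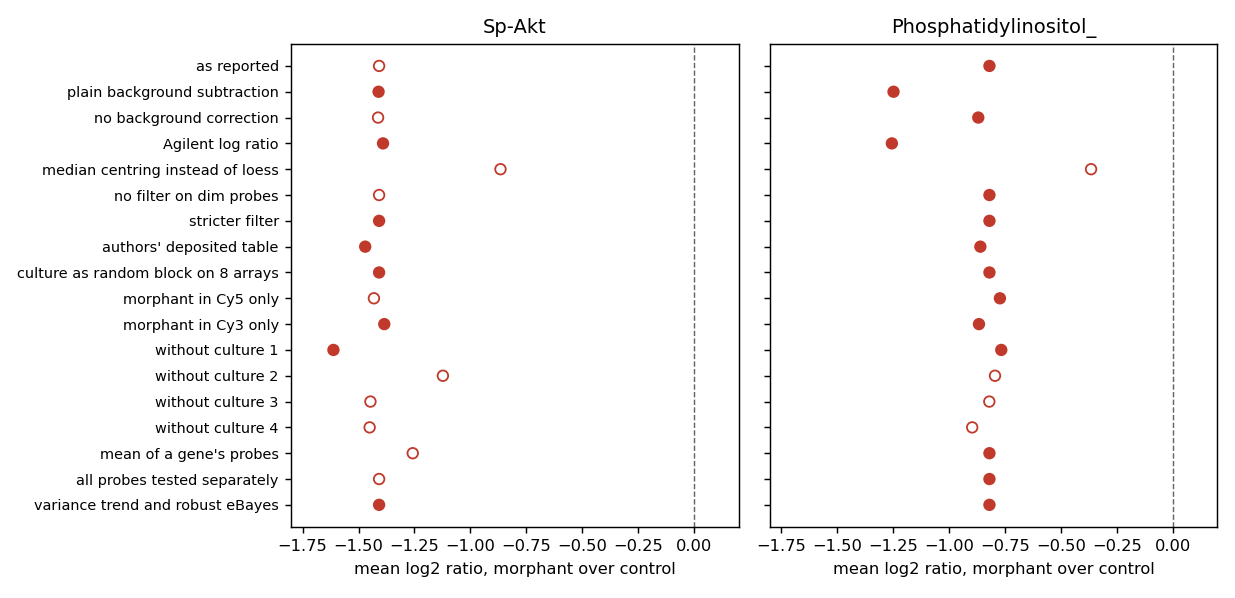
Mean log2 ratio of morphant over control for Sp-Akt (left) and Phosphatidylinositol_ (right) as reported and under 17 other settings, from top to bottom. Filled circles have an adjusted p under 0.05. Sp-Akt ranges from −1.61 to −0.87 and passes under 8 of the 17, Phosphatidylinositol_ ranges from −1.26 to −0.37 and passes under 13.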

How the data were processed

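Per the labels' protocols, column-purified total RNA was amplified from oligo dT and labelled with Cy3 or Cy5. The authors' scanner files hold mean signal and local background intensity per spot, not normalized, and also, per the file headers, Agilent's own log10 ratio of Cy5 over Cy3. The software was Agilent Feature Extraction in version 10.7.1.1, as the submitters' processing notes give it. The value table deposited by the authors holds log2 ratios. Its columns correlated at 0.971 to 0.993 with loess ratios of unsubtracted signals already turned to morphant over control. How it was made is not stated in the labels or headers.

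In limma 3.58.1 (R 4.3.3), signals were corrected with normexp (offset 50) and scaled by loess with 536 control spots at weight 0. Outlier spots, 0 to 32 per array, were left out. The 2 arrays of a culture, which hold the same RNAs, were averaged. Kept probes (9563 of 12696) were well above background on at least 4 of 8 arrays in 1 channel or both, and the brightest stood for its target. Means were tested against 0 with lmFit and eBayes, adjusted by Benjamini-Hochberg over all genes. The fit was tested on simulated data. The number of arrays limits the precision. All arrays share 1 slide and 1 scan.

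Members and lists were chosen with earlier results of these data known, and 3 name patterns were dropped or narrowed after the files were seen. Named genes are the members, the 2 genes of each list with the smallest p, the 5 nearest to Sp-Akt and Runt. The wider list of 23 targets and the genes named from it, the stage genes named and SpAkt_c were chosen after values were seen. No sequences or coordinates were used. One related gene is not reported here.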

Additional observations from a re-analysis of the deposited data

How the results depend on the processing

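Not all of the 17 alternatives could change a member's sign. Those that alter only the filter or the fit kept the same ratio. Fits on fewer cultures, on a single dye orientation or on the mean of a gene's probes used values already below 0. The sign could thus change only with another background correction or scaling, Agilent's log ratio or the authors' table. Both members stayed below 0 under all 17 alternatives, and of the results recomputed none changed direction (Runt, not among them, did with median centring). Sp-Akt passed under 8 of them: plain subtraction of background (−1.41, limma adjusted p = 0.0341), Agilent's log ratio (−1.39), a stricter filter and a variance trend with robust eBayes (−1.41 each), the authors' deposited table (−1.47), culture as a random block on 8 arrays (−1.41), the arrays with the morphant in Cy3 alone (−1.38), and without culture 1 (−1.61). Leaving out cultures moved it between −1.61 and −1.12, with adjusted p from 0.0412 to 0.160. Phosphatidylinositol_ missed the threshold with median centring (−0.37), and leaving out cultures moved it between −0.90 and −0.77. It was −1.25 with plain subtraction and −1.26 with Agilent's log ratio.

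Of the 2 members, 2 passed with subtraction, Agilent's ratio, the stricter filter, the authors' table, the random block, Cy3 alone, the variance trend and an adjusted p under 0.10. In that order 12.6%, 15.3%, 9.63%, 10.6%, 26.3%, 7.32%, 12.9% and 22.3% of all genes passed, against 5% as reported. With median centring 0 passed, and with cultures left out 0 to 2. Over all genes 274 passed as reported, against 692 with subtraction, 839 with Agilent's ratio, 56 with median centring (49 rose and 7 fell, against 162 and 112), 180 without a filter, 410 of 4259 with the stricter one, 401 with Cy3 alone, 580 with the authors' table, 1444 with the random block, 709 with the variance trend, 509 of all probes and 1224 at an adjusted p under 0.10. With cultures left out 0 to 887 passed. Without cultures 3 and 4, limma called 0, with 1219 and 1346 genes at an unadjusted p under 0.05. For the pathway lists, the count of 0 became 4 with subtraction, 5 with Agilent's ratio, 1 with the stricter filter, 2 with the authors' table, 10 with the random block, 1 with Cy5 alone, 5 with the variance trend, 6 at an adjusted p under 0.10, and 0 to 7 with cultures left out. The F for cultures of Sp-Akt was 4.42 with median centring, and that of Phosphatidylinositol_ passed with the authors' table at 9.83. The random block counts the dye-swap arrays partly as replicates. For 20 other named genes that were recomputed, 279 values kept their side of the threshold, 42 newly passed and 17 no longer did. The RAC targets, Sp-PIK3, Phosphatidylinosit, PHOSPHATIDYLINOSITO and the stage genes were not recomputed. Apart from fewer samples in the fits that leave out a culture, the cause of these shifts was not tested. No paired analysis was possible because the control is 1 pool. Alternatives for the F test, the wider list and the view of unscaled ratios were added after seeing the data.

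Limits are the 4 cultures, the single pool and dim signals, among them those of Phosphatidylinositol_, SpAkt_c, PDK1 and BCL2/adenoviru. Names are also cut short, so that several targets are known by part of a name.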
